A study of Homo sapiens with 48 samples.

Results

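The integrated stress response and the unfolded protein response were followed through 35 genes, given as a fixed list of symbols, out of 58721 genes in the deposited tables. All 35 symbols were found among the GENCODE 29 names of the tables' Ensembl identifiers. By role they fall into 7 transcription factors, 6 feedback regulators and effectors, 8 enzymes and transporters of amino acid supply, 4 genes of the endoplasmic reticulum (ER) stress factor XBP1 and of ER-associated degradation, and 10 ER chaperones and folding enzymes. RNA came from the colorectal cancer line DLD-1, made to express TIR1, a plant receptor that hands proteins fused to an auxin-inducible degron (AID) over for degradation once auxin is added. In CNOT1-AID cells the degron sits on CNOT1, the scaffold of the CCR4-NOT deadenylase complex, and in CNOT4-AID cells on CNOT4, a ubiquitin ligase that binds that complex. The parental line carries TIR1 and no tag. In the steady-state set each line was harvested with 1 mM auxin or untreated, at 8 h and at 24 h. In the triptolide set each line had 2 h of 1 mM auxin and then 0, 3, 6 or 12 h of 1 µM triptolide, an inhibitor of transcription initiation, so every library of that set, 0 h and parental included, had auxin and there was no untreated arm. Each of the 12 groups of a set had 2 libraries. The labels do not say whether the libraries of a group came from separate cultures, nor how many clones stand behind a tagged line, so p-values measure only the spread between these libraries.

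In the integrated stress response, kinases that sense amino acid shortage, ER stress, viral RNA or haem shortage phosphorylate the initiation factor eIF2, which lowers general protein synthesis while the mRNA of ATF4 is translated better. ATF4 then raises genes of amino acid supply, its partners DDIT3 (CHOP) and CEBPG, and PPP1R15A (GADD34), which directs a phosphatase back onto eIF2. The unfolded protein response adds a pair of ER sensors, IRE1, which splices XBP1 mRNA, and ATF6, and these raise chaperones such as HSPA5 (BiP) and the degradation machinery of the ER.

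4 promoters show the DNA elements through which these factors are known to act, taken from genes whose mRNAs moved in opposite directions after CNOT1 depletion. Each window runs from 250 bases before to 50 bases after the RefSeq start on GRCh38.p14, is written 5′ to 3′ on the strand of the gene, and has the matched letters in capitals. GENCODE 29 starts each of these 4 genes further upstream, so the whole window of CHAC1 and CRELD2 and a part of that of ASNS and HERPUD1 lie inside the GENCODE 29 gene model. CHAC1 (chr15:40953221-40953520, plus strand) and ASNS (chr7:97872359-97872658, minus strand) both hold the C/EBP-ATF composite element TGATGNAA, on the reverse strand in CHAC1. HERPUD1 (chr16:56931892-56932191, plus strand) holds that element on the reverse strand and the second ER stress response element, ATTGG and CCACG with any 1 base between them. CRELD2 (chr22:49918384-49918683, plus strand) holds the ER stress response element, CCAAT and CCACG with any 9 bases between them, on the reverse strand.
CHAC1: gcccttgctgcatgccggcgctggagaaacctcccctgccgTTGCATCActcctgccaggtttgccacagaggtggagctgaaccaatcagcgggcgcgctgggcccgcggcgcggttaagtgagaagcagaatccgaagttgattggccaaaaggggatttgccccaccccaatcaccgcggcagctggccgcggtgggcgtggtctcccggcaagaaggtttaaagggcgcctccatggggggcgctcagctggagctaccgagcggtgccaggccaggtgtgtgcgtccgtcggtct
ASNS: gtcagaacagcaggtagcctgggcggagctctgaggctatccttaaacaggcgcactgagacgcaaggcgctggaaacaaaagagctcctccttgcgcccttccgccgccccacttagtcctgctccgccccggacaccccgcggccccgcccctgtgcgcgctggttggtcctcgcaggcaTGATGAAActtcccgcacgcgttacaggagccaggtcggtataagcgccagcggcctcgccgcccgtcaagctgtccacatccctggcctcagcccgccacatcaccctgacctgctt
HERPUD1: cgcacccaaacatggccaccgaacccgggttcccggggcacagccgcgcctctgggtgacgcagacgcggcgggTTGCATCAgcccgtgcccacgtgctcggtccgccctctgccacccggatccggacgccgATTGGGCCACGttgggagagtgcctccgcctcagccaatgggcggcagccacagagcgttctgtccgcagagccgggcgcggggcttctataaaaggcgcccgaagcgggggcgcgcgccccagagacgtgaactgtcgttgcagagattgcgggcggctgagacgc
CRELD2: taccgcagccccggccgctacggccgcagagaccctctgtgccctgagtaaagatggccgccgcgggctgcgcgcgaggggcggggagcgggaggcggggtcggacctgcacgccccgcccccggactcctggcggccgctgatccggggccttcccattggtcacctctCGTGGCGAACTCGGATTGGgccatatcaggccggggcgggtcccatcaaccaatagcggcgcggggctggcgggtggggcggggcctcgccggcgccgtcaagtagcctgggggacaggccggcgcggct

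RefSeq windows were found for 32 of the 35 genes, and none for NUPR1, SHMT2 or SLC7A11. Searched on both strands, TGATGNAA was in 3.67% of 27305 human promoters and in 6 of the 32, namely ATF3, PPP1R15B, CHAC1, ASNS, SLC3A2 and HERPUD1. The ER stress response element was in 0.0806% of all promoters and in 5 of the 32, namely XBP1, HSPA5, HSP90B1, CALR and CRELD2. The second element was in 0.0549% of all and in HERPUD1, SDF2L1 and HYOU1, and the unfolded protein response element core TGACGTGG was in 0.795% of all and in HYOU1 alone, where it overlaps the second ER stress response element. The match in ASNS starts 68 bases before the RefSeq start, that in CRELD2 80 bases before it, and that in CHAC1 209 bases before it. A match describes these letters only. Taking 8 h and 24 h together, genes that rose and genes that fell after CNOT1 depletion both include matches of each of the first 3 elements. For the ER stress response element the genes that rose were XBP1 and HSPA5, called at 8 h and not at 24 h in the main fit.

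Triptolide libraries held 18216427 to 26723618 counts, and ERCC spike-in RNA took 0.941% to 3.92% of them, with 2.25% and 3.92% in the CNOT4-AID libraries at 12 h. The steady-state values are TPM (transcript abundance corrected for gene length and scaled to the same total in each library), for which depth is unknown. Replicates had r of 0.9921 or more across genes, except the parental pair at 0 h of triptolide (0.9763). All 10 markers of colon epithelium averaged at least 1 TPM, against 1 of 5 blood markers (CD14), 0 of 4 endothelial and 0 of 5 fibroblast markers. CNOT1 mRNA in CNOT1-AID cells was 44.95 and 48.26 TPM with auxin and 48.97 and 60.88 TPM untreated at 8 h, and 45.91 and 39.89 TPM with auxin and 68.37 and 59.01 TPM untreated at 24 h. Untreated parental cells had 83.82 to 95.17 TPM. CNOT4 mRNA in CNOT1-AID cells was 32.77 and 32.49 TPM with auxin and 6.9 and 9.51 TPM untreated at 8 h, and 44.42 and 38.82 TPM against 8.97 and 7.31 TPM at 24 h. The tag removes protein, of which these data hold no measurement. These are bulk samples, in which fewer cells of a kind and less RNA per cell cannot be told apart. NUPR1, a small stress-induced nuclear protein, did not pass the filter of 1 TPM in 2 libraries (its highest value was 0.66 TPM), so 34 of the 35 genes were tested at steady state and all 35 after triptolide.

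After CNOT1 depletion the program split. DDIT3, DDIT4, CHAC1, PPP1R15B and DNAJB9 rose at both times, while ATF4, ATF3 and PPP1R15A fell at both and most of the amino acid supply and chaperone genes fell by 24 h. At 8 h 14 of the 34 genes rose and 13 fell (adjusted p below 0.05, limma with Benjamini-Hochberg adjustment). At 24 h 10 rose and 18 fell. Of all 14921 genes tested 62.9% were called at 8 h (33.2% higher and 29.7% lower) and 71.5% at 24 h (36.7% higher and 34.7% lower). So the number called is not far above that background, and at 24 h the share of the 34 that fell lies above it. The genes were chosen with earlier results of these data known, so this and later comparisons with all genes are descriptions. The median log2 change of the 34 was 0.02 at 8 h and -0.28 at 24 h, against 0.0002 and -0.0048 for all genes tested. By role at 24 h, 3 of 6 transcription factors rose and 3 fell, and 3 of 6 feedback genes and effectors rose and 2 fell. Of the 8 amino acid supply genes 2 rose and 6 fell, and of the 10 ER chaperones 1 rose and 6 fell.

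These directions depend in part on scaling. Auxin-treated CNOT1-AID libraries had more protein-coding RNA (51.7% and 52.1% of TPM with auxin against 42.6% and 46.3% untreated at 8 h, and 54.7% and 52.3% against 47.2% and 44.9% at 24 h); its part in the results was not tested. Scaled to ERCC sequences instead of with TMM (trimmed mean of M values), the median of all genes moved up to 0.41 at 8 h and 0.31 at 24 h on the log2 scale, and the split became 21 higher and 4 lower at 8 h and 16 higher and 11 lower at 24 h. With TPM unscaled the splits were 18 and 6, and 15 and 15. Of all genes, ERCC scaling called 52.1% higher and 9.85% lower at 8 h, and 47% and 19.4% at 24 h. Unscaled TPM called 44.4% and 15.1% of all genes at 8 h, and 43.9% and 23.9% at 24 h. Every gene that rose with TMM scaling also rose with ERCC scaling. The 4 that still fell at 8 h were ATF4, ATF3, PPP1R15A and SLC7A5. The 11 that still fell at 24 h were ATF4, ASNS, PSAT1, PHGDH, SLC7A11, SLC7A5, EDEM1, HSP90B1, PDIA4, PDIA6 and CRELD2. TPM levels below are as deposited, before scaling, so their ratios lie above the fitted folds in auxin-treated CNOT1-AID cells.

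**Figure D1:**
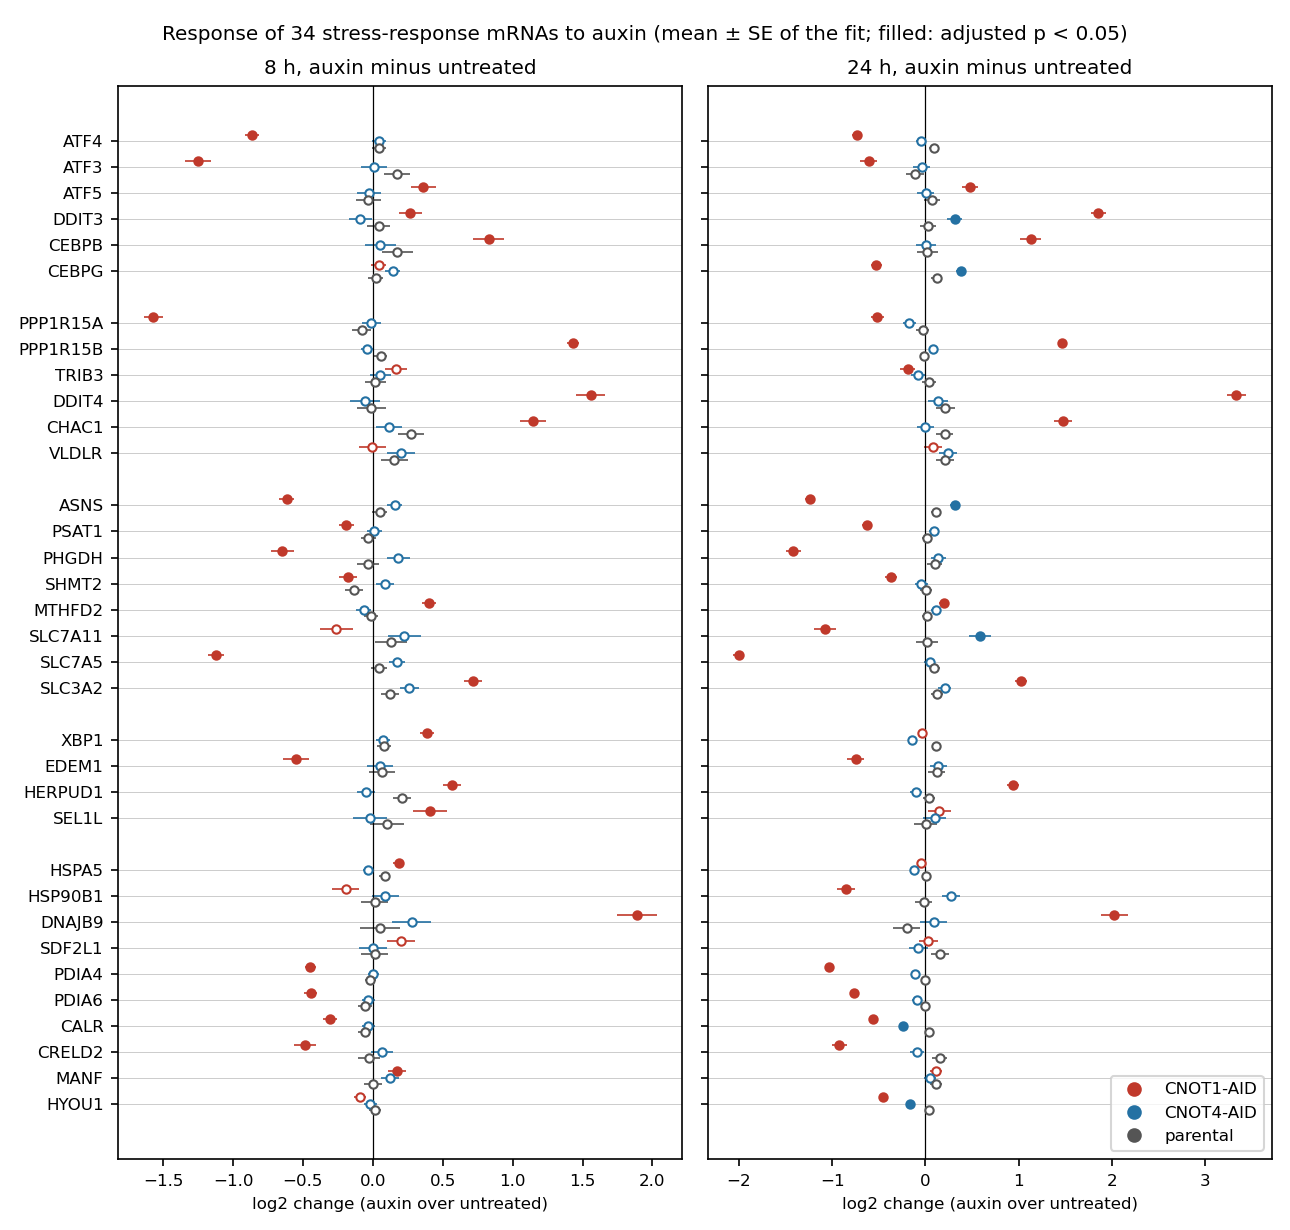
Log2 change in TPM with auxin over untreated for 34 stress-response genes in 5 role groups, at 8 h (left) and 24 h (right). Points are fitted means with the SE of the fit (n = 2 libraries per group), red for CNOT1-AID, blue for CNOT4-AID and grey for parental cells, filled where adjusted p is below 0.05. CNOT1-AID points spread from -2.00 (SLC7A5) to 3.34 (DDIT4) at 24 h, while those of the other lines stay near 0.

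Among the transcription factors, DDIT3 (CHOP, which promotes cell death under lasting ER stress) moved most at 24 h. It had 47.49 and 47.17 TPM in CNOT1-AID cells with auxin at 24 h, against 11.21 and 9.88 TPM in untreated cells, and 13.79 and 13.92 TPM against 9.03 and 9.57 TPM at 8 h. Both auxin libraries lay above all untreated ones and above all 8 libraries of the other lines at the same time (7.32 to 11.41 TPM at 24 h and 7.19 to 12.68 TPM at 8 h). Its log2 change was 1.86 ± 0.083 (SE; adjusted p = 4.23e-12), or 3.63-fold, at 24 h and 0.27 ± 0.083 (adjusted p = 0.00976) at 8 h. The 8 h call was lost without replicate 2 of the untreated cells (0.22, adjusted p = 0.0729). CEBPB, a C/EBP factor that binds with stress-induced partners, had 34.13 and 37.69 TPM with auxin at 24 h and 13.47 and 13.31 TPM untreated, and rose by 1.13 ± 0.11 (adjusted p = 7.99e-08). ATF5, a factor whose mRNA is translated under eIF2 phosphorylation like that of ATF4, rose by 0.36 at 8 h and 0.48 at 24 h.

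ATF4 went the other way. Its mRNA stood at 118.71 and 116.35 TPM with auxin at 8 h, against 172.73 and 176.75 TPM untreated, and at 179.87 and 184.17 TPM with auxin at 24 h, against 259.19 and 247.81 TPM untreated. These were the lowest values of any library at each time. The change was -0.86 ± 0.052 (adjusted p = 3.54e-10) at 8 h and -0.74 ± 0.052 (adjusted p = 1.28e-09) at 24 h. ATF4 is regulated mainly through translation, which mRNA levels do not show. ATF3, a stress-induced repressor downstream of ATF4, had 2.47 and 2.4 TPM with auxin and 5.12 and 5.69 TPM untreated at 8 h, and 4.08 and 3.77 TPM against 5.17 and 5.34 TPM at 24 h. It was again below every other library of its time, by -1.25 ± 0.092 (adjusted p = 4.57e-09) at 8 h and -0.61 ± 0.092 (adjusted p = 1.66e-05) at 24 h. CEBPG, the C/EBP partner of ATF4, had a log2 change of 0.04 at 8 h (adjusted p = 0.535) and fell by 0.52 at 24 h. The 24 h falls of ATF3 and CEBPG were not called with ERCC scaling (-0.27 and -0.16).

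The feedback genes and effectors held both the largest rise and the largest early fall. DDIT4 (REDD1), an inhibitor of the growth kinase mTORC1, had 441.19 and 463.27 TPM with auxin at 24 h, against 36.34 and 37.33 TPM untreated, and 66.2 and 68.83 TPM against 19.8 and 17.05 TPM at 8 h. In the other lines it ranged over 29.67 to 37.96 TPM at 24 h and 11.75 to 26.59 TPM at 8 h, with no overlap. It rose 10.1-fold at 24 h (log2 3.34 ± 0.11, adjusted p = 7.85e-14) and 2.94-fold at 8 h (1.56 ± 0.11, adjusted p = 1.81e-09). CHAC1, an enzyme that breaks down glutathione, had 58.12 and 64.16 TPM with auxin and 17.29 and 18.72 TPM untreated at 24 h, and 26.11 and 27.55 TPM against 9.26 and 9.99 TPM at 8 h. These were again the highest libraries of each time, and CHAC1 rose by 1.15 ± 0.093 at 8 h and 1.48 ± 0.093 at 24 h (adjusted p = 1.55e-08 and 3.23e-10).

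Both subunits that direct a phosphatase to eIF2 were measured, and they moved apart. PPP1R15B, the constitutive one, had 82.71 and 80.4 TPM with auxin at 8 h, against 22.47 and 26.26 TPM untreated, and 96.81 and 91.93 TPM against 29.52 and 26.8 TPM at 24 h. PPP1R15A, the stress-induced one, had 9.56 and 9.61 TPM with auxin at 8 h, against 23.88 and 24.47 TPM untreated, and 16.67 and 15.64 TPM against 19.86 and 19.15 TPM at 24 h. PPP1R15B was above and PPP1R15A below every other library at both times. PPP1R15B rose by 1.43 ± 0.044 and 1.47 ± 0.044 (adjusted p = 1.93e-13 and 4.35e-14). PPP1R15A fell by 1.57 ± 0.069 (adjusted p = 8.16e-12) at 8 h and 0.52 ± 0.069 (adjusted p = 3.67e-06) at 24 h, and this 24 h fall was not called with ERCC scaling (-0.15). TRIB3, a pseudokinase that restrains ATF4 and AKT, had a change of 0.17 (adjusted p = 0.0702) at 8 h and -0.19 (adjusted p = 0.0336) at 24 h. The TRIB3 call was lost in 2 of 4 fits that left out a library, without replicate 1 of the auxin cells or replicate 2 of the untreated cells at 24 h, and its sign reversed with ERCC scaling (0.18) and without scaling (0.07). VLDLR, a lipoprotein receptor induced by ATF4, had changes of -0.0025 and 0.08, neither called, and was called higher with ERCC scaling (0.37 and 0.42).

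Of the 8 genes of amino acid supply 5 fell at 8 h and 6 at 24 h, while SLC3A2 and MTHFD2 rose at both times. SLC7A5 (LAT1), which imports large neutral amino acids, had 135.44 and 135.34 TPM with auxin at 8 h, against 237.22 and 243.85 TPM untreated, and 72.03 and 71.19 TPM against 241.16 and 241.37 TPM at 24 h. No other library at 24 h was below 197.85 TPM. SLC7A5 fell by 1.12 ± 0.058 at 8 h and 2.00 ± 0.058 at 24 h (adjusted p = 5.88e-11 and 3.00e-14) (4.01-fold lower at 24 h). SLC3A2, the heavy chain with which SLC7A5 and SLC7A11 form transporters, rose instead, by 0.72 and 1.02, with 509.87 and 504.66 TPM with auxin and 206.67 and 209.43 TPM untreated at 24 h. SLC7A11, the light chain of the cystine importer, had 2.68 and 2.42 TPM with auxin at 24 h, against 5.33 and 4.81 TPM untreated, and fell by 1.08 ± 0.12 (adjusted p = 3.08e-07), while its 8 h change of -0.26 was not called.

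ASNS, asparagine synthetase, had 45.79 and 42.15 TPM with auxin at 24 h, against 86.26 and 88.33 TPM untreated. PHGDH, the first enzyme of serine synthesis, had 47.92 and 54.16 TPM with auxin and 112.94 and 115.75 TPM untreated. No library of another line was below 73.95 TPM for ASNS or 103.66 TPM for PHGDH at 24 h. ASNS fell by 0.62 at 8 h and 1.24 ± 0.054 at 24 h (adjusted p = 3.50e-12), and PHGDH by 0.65 and 1.42 ± 0.082 (adjusted p = 1.07e-10), but their 8 h falls were not called with ERCC scaling (-0.16 and -0.19). PSAT1, which acts after PHGDH in serine synthesis, fell by 0.19 and 0.62. SHMT2, the mitochondrial enzyme that passes one-carbon units from serine, fell by 0.18 and 0.37, and MTHFD2, the next mitochondrial folate enzyme, rose by 0.40 and 0.20. The 8 h calls of PSAT1 and SHMT2 were each lost in 2 of 4 fits that left out a library, PSAT1 without replicate 2 of the auxin cells (-0.14, adjusted p = 0.0786) or replicate 1 of the untreated cells (-0.15, 0.0648), and SHMT2 without replicate 1 of the auxin cells (-0.16, 0.115) or of the untreated cells (-0.11, 0.232). With ERCC scaling PSAT1 at 8 h was 0.27 and SHMT2 was 0.28 at 8 h and 0.005 at 24 h.

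XBP1, the IRE1-spliced factor, had 56.86 and 53.35 TPM with auxin at 8 h, against 33.36 and 35.09 TPM untreated, and 52.8 and 52.31 TPM against 45.59 and 44.36 TPM at 24 h. Both auxin libraries had more XBP1 TPM than any other library at each time. After TMM scaling XBP1 rose by 0.39 ± 0.048 (adjusted p = 2.58e-06) at 8 h and had a change of -0.04 ± 0.048 (adjusted p = 0.53) at 24 h, which ERCC scaling turned to 0.34 (adjusted p = 0.00471). The table sums spliced and unspliced XBP1, so splicing was not measured. HERPUD1, an ER membrane protein of the degradation complex, rose by 0.57 and 0.94, to 81.08 and 78.71 TPM with auxin at 24 h, against 34.4 and 34.54 TPM untreated. EDEM1, which marks misfolded glycoproteins for degradation, fell by 0.55 and 0.75. SEL1L, the adaptor of the ER ubiquitin ligase HRD1, rose by 0.41 at 8 h, a call lost in 2 of 4 fits that left out a library, and had 0.15 at 24 h (adjusted p = 0.279).

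HSPA5 (BiP), the main ER chaperone and a usual readout of ER stress, had 207.33 and 203.64 TPM with auxin at 8 h, against 139.94 and 155.15 TPM untreated, and 234.65 and 214.01 TPM against 195.22 and 191.4 TPM at 24 h. The 8 h auxin libraries were the highest of that time, and at 24 h they overlapped the other lines (179.91 to 215.1 TPM). HSPA5 rose by 0.18 ± 0.040 (adjusted p = 0.000753) at 8 h and had -0.05 ± 0.040 (adjusted p = 0.309) at 24 h, or 0.33 (adjusted p = 0.00533) with ERCC scaling. DNAJB9 (ERdj4), a co-chaperone of HSPA5, was the exception among chaperones. It had 21.31 and 20.97 TPM with auxin at 8 h, against 3.42 and 5.38 TPM untreated, and 28.72 and 26.46 TPM against 6.29 and 4.36 TPM at 24 h, and no library of another line exceeded 6.03 TPM. DNAJB9 rose by 1.89 ± 0.14 and 2.03 ± 0.14 (adjusted p = 5.65e-09 and 1.19e-09).

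Most of the other folding genes had fallen by 24 h. PDIA4 and PDIA6, disulfide isomerases, fell by 0.45 and 0.44 at 8 h and by 1.04 and 0.76 at 24 h. CRELD2, a secreted ER stress protein, fell by 0.49 and 0.92, and CALR, the glycoprotein chaperone calreticulin, by 0.31 and 0.56. HSP90B1 (GRP94) had -0.19 at 8 h (adjusted p = 0.0899) and fell by 0.85 at 24 h, and HYOU1, a large HSP70 relative, had -0.09 (adjusted p = 0.0839) and fell by 0.45. MANF, a secreted ER-resident factor, was called at 8 h (0.17) but in none of the 4 fits that left out a library, and SDF2L1, a partner of ER co-chaperones, was not called at either time (0.20 and 0.03). With ERCC scaling the 8 h values of PDIA4, PDIA6, CALR and HYOU1 were above 0 (0.02, 0.02, 0.16 and 0.37), and the 24 h falls of CALR and HYOU1 were not called (-0.18 and -0.07).

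**Figure D2:**
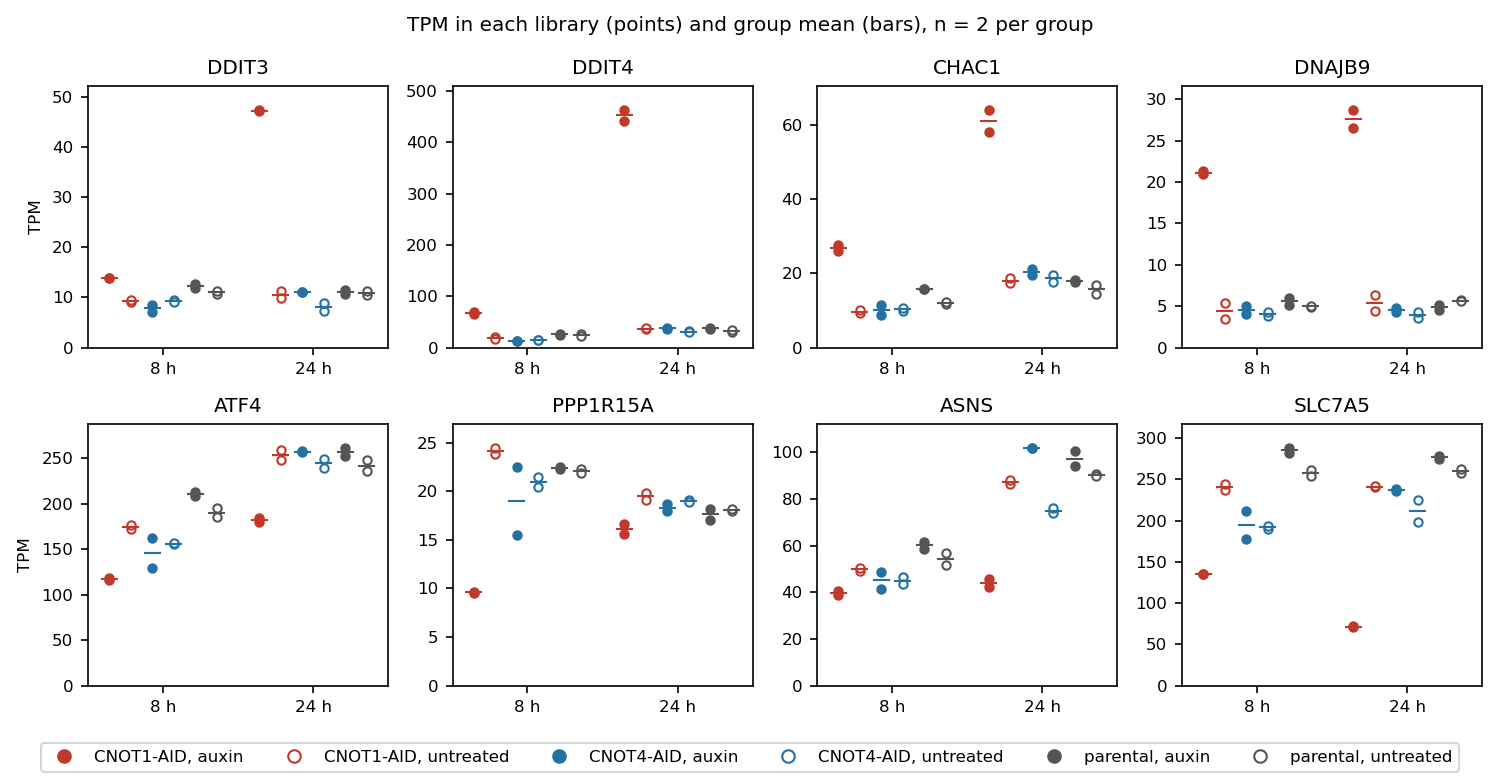
TPM of 8 stress-response genes in each of the 24 steady-state libraries (points), with the group mean as a bar (n = 2 per group), filled for auxin and open for untreated, at 8 h and 24 h. In CNOT1-AID cells with auxin (red, filled) DDIT3, DDIT4, CHAC1 and DNAJB9 stand above all other libraries of their time, reaching 463.27 TPM for DDIT4, while ATF4, PPP1R15A, ASNS and SLC7A5 stand below them.

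Between 8 h and 24 h of CNOT1 depletion the response shifted in 22 of the 34 genes, 6 upward and 16 downward, against 36.3% of all genes (17.4% and 18.9%). The change at 24 h exceeded that at 8 h by 1.78 ± 0.15 for DDIT4 (adjusted p = 4.14e-07), 1.59 ± 0.12 for DDIT3 (adjusted p = 1.10e-07) and 1.05 ± 0.097 for PPP1R15A (adjusted p = 8.71e-07). DDIT4 and DDIT3 thus had a larger rise at 24 h, and PPP1R15A a smaller fall. ATF3 (0.64), HERPUD1 (0.37) and SLC3A2 (0.31) also shifted upward, the last in 4 of 8 fits that left out a library. SLC7A5 (-0.88), SLC7A11 (-0.82), PHGDH (-0.77), HSP90B1 (-0.66), ASNS (-0.62), PDIA4 (-0.59) and CEBPG (-0.57) shifted downward most. With ERCC scaling 4 of the 6 upward and 14 of the 16 downward calls were kept, those lost upward being HERPUD1 (0.29, adjusted p = 0.186) and SLC3A2 (0.22, adjusted p = 0.306). Without scaling 5 and 13 were kept, and HERPUD1 was again lost (0.34, adjusted p = 0.0639). ATF4 (0.13, adjusted p = 0.193), PPP1R15B (0.03) and DNAJB9 (0.14) showed no called shift.

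Auxin alone left these mRNAs without a call. In parental cells limma called 0 of 34 at 8 h and 0 at 24 h (0.0201% and 0% of all genes), and 2 and 3 had an unadjusted p under 0.05. Set against the parental response, the CNOT1 response was higher for 10 genes and lower for 11 at 8 h, against 50.2% of all genes called (27.2% higher and 23% lower), and higher for 10 and lower for 17 at 24 h, against 61.9% (32.4% and 29.5%). With ERCC scaling these splits were 20 and 4, and 12 and 9, and without scaling the 8 h split was 13 and 7. The difference from the parental response at 24 h was 3.12 ± 0.15 for DDIT4, 2.23 ± 0.20 for DNAJB9, 1.83 ± 0.12 for DDIT3, -2.10 ± 0.082 for SLC7A5 and -0.83 ± 0.073 for ATF4. Their adjusted p-values were 3.89e-11, 5.73e-08, 1.02e-09, 4.49e-12 and 4.38e-08. Set against the CNOT4 response, the CNOT1 response was higher for 13 genes and lower for 14 at 8 h, against 51.6% of all genes called (27.7% and 23.9%), and higher for 9 and lower for 17 at 24 h, against 62.2% (32.1% and 30.1%). With ERCC scaling the 8 h split was 21 and 4, and without scaling 17 and 6. Shares of all genes are not given for these rescaled splits against the parental and CNOT4 responses.

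CNOT4 depletion moved few of these genes, and by small amounts. At 8 h limma called 0 of 34 (0.288% of all genes), with 5 at an unadjusted p under 0.05. In these libraries protein-coding genes took 30.6% of TPM in replicate 1 and 39.5% in replicate 2, and the part this plays was not tested. At 24 h 4 genes rose and 2 fell, against 4.48% of all genes called (2.1% higher and 2.39% lower). SLC7A11 had 4.98 and 5.19 TPM with auxin, against 2.93 and 2.96 TPM untreated. ASNS had 101.89 and 101.87 TPM with auxin, against 73.95 and 76.08 TPM untreated. CEBPG had 14.92 and 14.85 TPM with auxin, against 10.57 and 10.15 TPM untreated. For these 3 genes both auxin libraries were above both untreated ones, and they rose by 0.59 ± 0.12 (adjusted p = 0.0144), 0.32 ± 0.054 (adjusted p = 0.00678) and 0.38 ± 0.055 (adjusted p = 0.00251).

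DDIT3 had 11.15 and 11.09 TPM with auxin and 7.32 and 8.99 TPM in untreated CNOT4-AID cells at 24 h, a rise of 0.31 (adjusted p = 0.0443). CALR had 465.56 and 466.66 TPM against 517.63 and 490.05 TPM, and fell by 0.24 (adjusted p = 0.0144), and HYOU1 fell by 0.17 (adjusted p = 0.0471). SLC7A11, ASNS and CEBPG rose here and fell in CNOT1-AID cells at 24 h, DDIT3 rose in both, and CALR and HYOU1 fell in both. Apart from CEBPG, each of the 6 calls was lost (adjusted p of 0.0669 to 0.385) when replicate 1 or 2 of the auxin cells or replicate 1 of the untreated cells at 24 h was left out. With ERCC scaling, which moved the median of all genes to 0.19, 5 genes were higher and 0 lower, and without scaling 2 and 0. Of all genes 3.07% were higher and 0.0067% lower with ERCC scaling, and 0.127% and 0.0134% without scaling. Protein-coding genes took 45.8% of TPM in both auxin libraries at 24 h, against 41.9% and 43.3% untreated, and the part of this in the calls was not tested. In untreated CNOT4-AID cells SLC7A11 already stood below the parental line by 0.50. The CNOT4 response itself did not pass the test against the parental response for any of the 34 genes, at 8 h (0.0134% of all genes, 2 genes at an unadjusted p under 0.05) or at 24 h (0.067%, 10 genes). For SLC7A11 this difference was 0.57 with an approximate 95% interval of 0.25 to 0.89 (adjusted p = 0.148).

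Turnover was read from the loss of counts after triptolide, as slopes in log2 units per hour (edgeR quasi-likelihood, libraries scaled to ERCC sequences). In parental cells 16 of 35 mRNAs declined, near the 48.3% of all 16806 genes that did, and 0 rose (0.744% of all genes), so the module held both fast and stable mRNAs. Fitted half-lives were under 4 h for 12 genes with a called decline, 4 to 12 h for ATF4, CEBPG and SDF2L1, and beyond 12 h or without a decline for the other 19, among them all 8 amino acid supply genes. NUPR1 had too few counts for a slope to be read. The shortest by the fitted line were 1.33 h for DDIT3, 1.36 h for CHAC1, 1.42 h for DDIT4, 2.06 h for CEBPB and 2.14 h for both XBP1 and PPP1R15A. Less than 3% of CHAC1 and DDIT4, 6.6% of DDIT3 and 6.11% of PPP1R15A was left at 3 h (means). For CHAC1, DDIT4, DDIT3, PPP1R15A and CEBPB a straight line over 12 h averages a fast early and a slower later loss, and it understates the first. XBP1 is not among these, with 37.9% left at 3 h and 9.67% at 6 h (means). The order above is that of the line. Over the first 3 h the log2 changes were -5.60 for DDIT4, -5.20 for CHAC1, -4.03 for PPP1R15A, -3.91 for DDIT3, -2.65 for CEBPB and -1.4 for XBP1. Half-lives beyond 12 h are extrapolated.

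The slope was higher, that is, loss was slower, for 12 of 35 genes in CNOT1-AID than in parental cells, against 18.8% of all genes. Every library of this set had auxin, so line and depletion cannot be told apart in any slope or 3 h comparison between lines. No gene was called with a faster loss (0.94% of all genes; none of the 35 had an unadjusted p under 0.05 in that direction, and DESeq2 with ERCC size factors also called 0). With TMM scaling and with DESeq2, however, 13 and 12 of the 35 were called with a faster loss, against 15.7% of all genes with TMM scaling. CHAC1 had 1653 and 1624 counts in CNOT1-AID cells after 12 h of triptolide, against 12 and 5 counts in parental cells. Scaled to ERCC sequences this was 80.5% and 69.1% of the 0 h mean, against 0.86% and 0.299% in parental cells. At 3 h the same values were 74.9% and 93.4%, against 2.78% and 2.62%. CHAC1 mRNA was thus nearly held in one line and nearly gone in the other, with a slope difference of 0.70 ± 0.15 log2 per h (adjusted p = 0.00131).

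CEBPB kept 87.8% and 87.2% at 12 h in CNOT1-AID cells, against 1.86% and 2.25% in parental cells, a slope difference of 0.46 ± 0.092 (adjusted p = 0.000879). DNAJB9 kept 115% and 82.4% at 12 h, against 4.13% and 5.96% (0.36 ± 0.057, adjusted p = 3.60e-05). XBP1 kept 64.6% and 57.9%, against 2.63% and 1.79% (0.41 ± 0.037, adjusted p = 1.04e-11). These 3 mRNAs did not overlap between the lines at any time after 0 h, and neither did TRIB3 (0.36, adjusted p = 4.64e-12), HERPUD1 (0.26, adjusted p = 1.73e-08) or PPP1R15B (0.25, adjusted p = 6.04e-07). VLDLR (0.24), SDF2L1 (0.12) and CEBPG (0.10) were called as well, and their libraries did not overlap after 0 h either. The share of all genes without such overlap was not counted, here or elsewhere.

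DDIT4 and DDIT3 kept less. DDIT4 fell to 29.4% and 40.5% at 3 h in CNOT1-AID cells, against 1.95% and 2.16% in parental cells, and then stayed at 34.9% and 32.1% at 12 h, against 0.426% and 0.747%. DDIT3 had 27.1% and 22.5% at 3 h in CNOT1-AID cells, against 5.75% and 7.45%, and 16.7% and 14% at 12 h, against 0.944% and 0.525%, where the parental libraries held 3 and 2 counts. For both genes most of the loss in CNOT1-AID cells thus came before 3 h. Slope differences were 0.59 ± 0.17 (adjusted p = 0.0191) and 0.54 ± 0.14 (adjusted p = 0.0075). The DDIT4 call was lost without replicate 1 of CNOT1-AID cells at 12 h or of parental cells at 0 h (adjusted p up to 0.0636), the CEBPG call without the first of these (0.112), and the SDF2L1 call in 3 of 16 such fits. All 12 genes with a slower loss were also called with TMM scaling and with DESeq2. Over 0 to 6 h alone 8 of the 12 were called.

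PPP1R15A, ATF3 and ATF4 had no called difference in slope. PPP1R15A still fell to 10% and 14.3% at 3 h in CNOT1-AID cells, against 6.42% and 5.8% in parental cells, and had 7.66% and 5.35% at 12 h, against 2.06% and 1.72%, with a slope difference of 0.16 ± 0.12 (adjusted p = 0.532), although its CNOT1-AID libraries lay above the parental ones at each time. ATF3 fell to 18.9% and 34.2% at 3 h, against 14.3% and 16.6%, and had 24.2% and 16.1% at 12 h, against 4.31% and 3.9% (0.20 ± 0.086, adjusted p = 0.133). Neither gene overlapped between the lines at 12 h. ATF4 had 38.9% and 51.9% at 3 h in CNOT1-AID cells, against 67.4% and 59.2%, and 24.1% and 19% at 12 h, against 39.7% and 31.3%. Its CNOT1-AID libraries were below the parental ones at 3, 6 and 12 h, but the slope difference of -0.06 ± 0.038 (approximate 95% interval -0.13 to 0.02) was not called (adjusted p = 0.374). ATF4 was also below the parental libraries at these times in CNOT4-AID cells, with 33.8% and 39.3% at 3 h and 15.8% and 8.02% at 12 h. ATF4, ATF3 and PPP1R15A are also the genes that fell at 8 h of CNOT1 depletion among those with a parental half-life under 12 h. NUPR1 had 6 and 0 counts in parental cells and 17 and 31 in CNOT1-AID cells at 0 h, too few for a slope to be read.

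**Figure D3:**
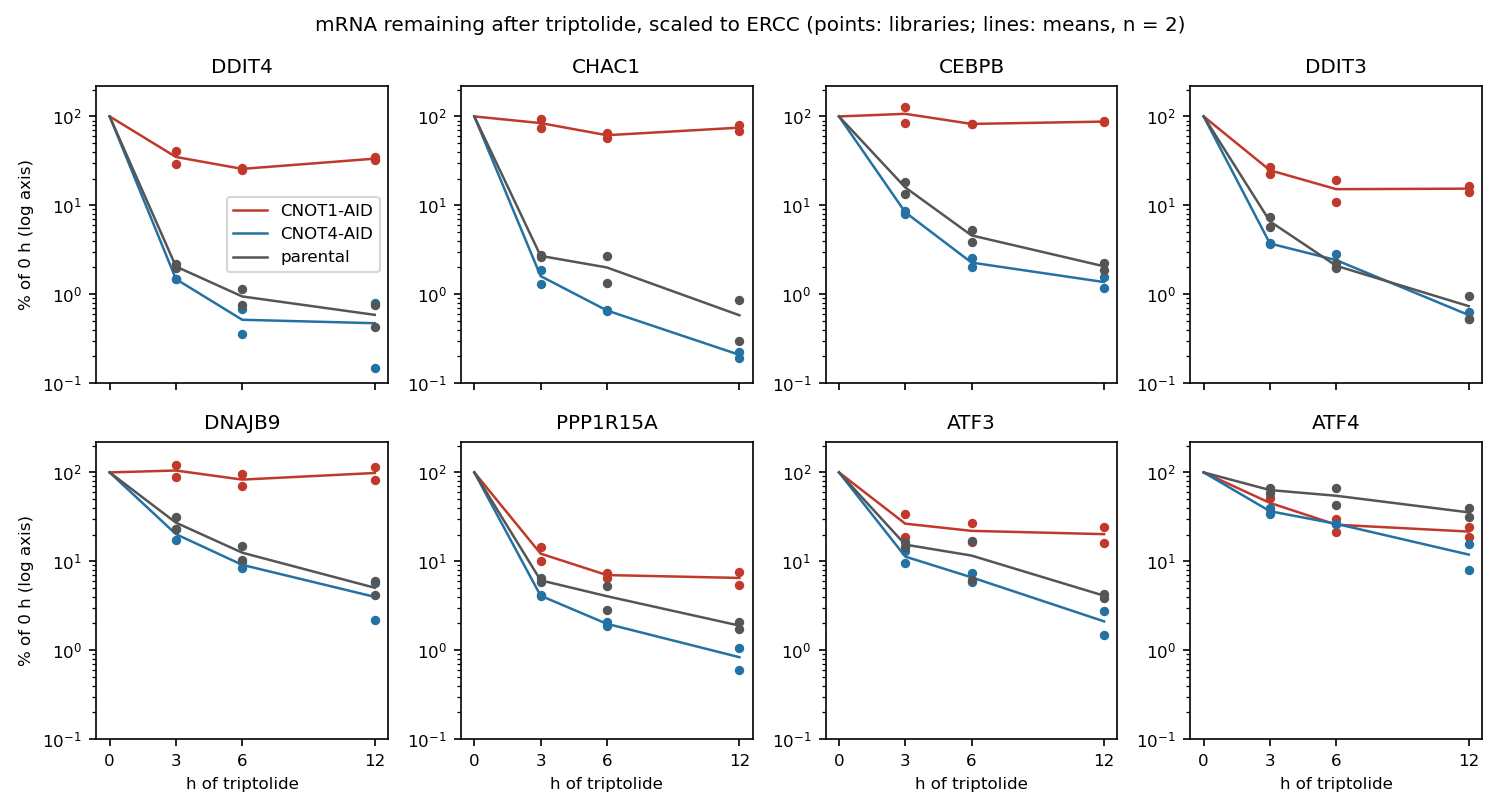
mRNA remaining after 0 to 12 h of triptolide as a percentage of the line's 0 h mean (log axis), scaled to ERCC sequences, for 8 stress-response genes. Points are libraries and lines join group means (n = 2), red for CNOT1-AID, blue for CNOT4-AID and grey for parental cells. CHAC1, CEBPB and DNAJB9 stay above 50% of their start in CNOT1-AID cells, and DDIT4 and DDIT3 level off lower. ATF4 lies below its parental values in both CNOT1-AID and CNOT4-AID cells.

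Compared at 3 h alone, which asks only about the first loss, 6 of 35 mRNAs had kept more in CNOT1-AID than in parental cells, against 3.25% of all genes. The log2 differences of the 3 h over 0 h ratios were 4.95 ± 0.47 for CHAC1 (adjusted p = 3.34e-22), 4.08 ± 0.46 for DDIT4 (adjusted p = 8.25e-16), 2.75 ± 0.44 for CEBPB, 1.95 ± 0.46 for DNAJB9, 1.90 ± 0.54 for DDIT3 and 1.44 ± 0.42 for PPP1R15B. Well-counted genes had nearly the same SE in this fit, such as 0.2937 for PSAT1 and 0.2925 for HSPA5 in CNOT1-AID cells. These p-values thus rest largely on a spread shared over genes, not on the 2 libraries of each gene alone. The calls for CHAC1, DDIT4 and CEBPB held in all 8 fits that left out a library. Those for DDIT3 and PPP1R15B were lost in 6 of them, and that for DNAJB9 without replicate 2 of the parental cells at 3 h (1.74, adjusted p = 0.0666). Without that parental library the count was 3.

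In CNOT4-AID cells 2 of 35 mRNAs were called with a faster loss than in parental cells and 0 with a slower one (edgeR, 0 also at an unadjusted p under 0.05). TRIB3 and HERPUD1 had the steeper slopes (-0.13 ± 0.031, adjusted p = 0.0458, and -0.12 ± 0.033, adjusted p = 0.049), against 0.845% of all genes. HERPUD1 had 4.12% and 2.19% at 12 h in CNOT4-AID cells, against 9.41% and 8.47%, and TRIB3 1.21% and 0.911%, against 3.28% and 2.97%. In both genes the libraries did not overlap at 12 h. The slopes of all genes had a median difference of -0.08 here, the ERCC share was 2.25% and 3.92% in the CNOT4-AID libraries at 12 h, and with TMM scaling, DESeq2, a replicate block or 0 to 6 h alone 0 of 35 were called, while DESeq2 with ERCC size factors called 9 with a faster loss. The share of ERCC in this result was not tested. Leaving out 1 library moved the count between 0 and 24. It was 24 without replicate 1 of CNOT4-AID cells at 12 h, 4 without replicate 1 of parental cells at 0 h, and 1 or 5 without replicate 1 or 2 of parental cells at 6 h. It was 0 without any other single CNOT4-AID library at 0, 6 or 12 h, without replicate 2 of those cells at 3 h, and without replicate 2 of parental cells at 0 h or either parental library at 3 or 12 h. At 3 h alone edgeR called 0 of 35 between CNOT4-AID and parental cells (0.0417% of all genes), with 2 at an unadjusted p under 0.05, and DESeq2 called 0. Between CNOT1-AID and CNOT4-AID cells loss was slower in CNOT1-AID cells for 20 of 35 genes, against 51.5% of all genes, and for 13 of these with TMM scaling or DESeq2, each of which called 12 other genes with a faster loss. Shares of all genes are not given here for the counts under alternative settings or with a library left out. Those counts are therefore not set against all genes.

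The lines also differed before any auxin or after only 2 h of it. Untreated CNOT1-AID cells differed from untreated parental cells in 6 of 34 genes, 3 higher and 3 lower (10.1% and 10.6% of all genes). VLDLR stood out, with 1.78 and 1.95 TPM in untreated CNOT1-AID cells against 1.02 and 1.17 TPM in untreated parental cells at 8 h, and 3.97 and 4.28 TPM against 1.47 and 1.54 TPM at 24 h. No library overlapped within a time, and the difference was 0.91 ± 0.069 (adjusted p = 9.24e-08). The other 5 differences were 0.28 or smaller in size, and with ERCC scaling or none the split was 1 higher and 0 lower. Without 1 library it was 1 and 3 (CNOT1-AID 8 h replicate 1), 3 and 5 (CNOT1-AID 8 h replicate 2), 1 and 4 (parental 24 h replicate 1) or 1 and 1 (parental 8 h replicate 1). Untreated CNOT4-AID cells were higher in 12 genes and lower in 3 (11% and 9.48% of all genes), led by SLC7A11 (-0.50 ± 0.082), VLDLR (0.41 ± 0.069), CHAC1 (0.28) and PPP1R15A (0.27). Without scaling this split was 1 and 24, beside a median of -0.25 over all genes, and with ERCC scaling it was 11 and 1. Without replicate 2 of CNOT4-AID cells at 8 h or at 24 h 1 gene was lower.

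After 2 h of auxin, at 0 h of triptolide, 7 of 35 genes were higher in CNOT1-AID than in parental cells and 0 lower by edgeR (9.66% and 4.84% of all genes; 3 lower at an unadjusted p under 0.05, and 1 lower by DESeq2). VLDLR (1.71 ± 0.22), DNAJB9 (1.13 ± 0.22), CEBPG (0.54), PHGDH (0.50), HERPUD1 (0.49) and PPP1R15B (0.43) were among them, with NUPR1 at the counts given above. With ERCC scaling 3 of the 7 were kept, VLDLR, NUPR1 and DNAJB9. VLDLR had 257 and 238 counts in CNOT1-AID cells, against 77 and 80 in parental cells. In CNOT4-AID cells 5 genes were higher and 0 lower (7.88% and 4.09% of all genes; 2 lower at an unadjusted p under 0.05, and 2 lower by DESeq2). PPP1R15A had 4386 and 5280 counts there, against 2799 and 2270 in parental cells, a difference of 0.92 ± 0.14 (adjusted p = 0.000154), and HYOU1 (0.62), SLC3A2 (0.47), HSP90B1 (0.34) and HSPA5 (0.33) followed, but with ERCC scaling PPP1R15A alone of the 5 was kept. Both comparisons use the parental 0 h libraries, which agreed least. Without replicate 1 or 2 of these, 14 or 13 genes were called higher and 2 or 6 lower in CNOT1-AID cells, and 9 or 12 higher and 3 or 6 lower in CNOT4-AID cells. NUPR1, HSP90B1 and HSPA5 lost their calls in 2 of 4 fits that left out a library, and PPP1R15B and SLC3A2 in 1. With no untreated arm in this set, the line and the 2 h of auxin cannot be told apart here.

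The 34 genes could be ordered by their parental slope and set beside their response to CNOT1 depletion, which comes from other libraries. Of the 12 with a parental half-life under 4 h, 7 rose, 3 fell and 2 were not called at 24 h, with a median log2 change of 1.04. Of the other 22, 3 rose, 15 fell and 4 were not called, with a median of -0.59. All 1517 genes with half-lives under 4 h had 59.1% higher and 20.6% lower and a median of 0.72, and the 12585 others had 35.6% higher and 38% lower and a median of -0.05. The 4 h limit was chosen after the values were seen. Across genes, Spearman's correlation of parental slope with response was -0.68 at 24 h and -0.50 at 8 h over the 34 genes, against -0.38 and -0.47 over 14102 genes. For the CNOT4 response at 24 h it was -0.04 over the 34 genes. Genes share libraries and are not independent replicates, so these are descriptions. The exceptions on the fast side were PPP1R15A, ATF3 and TRIB3, which fell at 24 h, and on the stable side SLC3A2, ATF5 and MTHFD2, which rose.

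**Figure D4:**
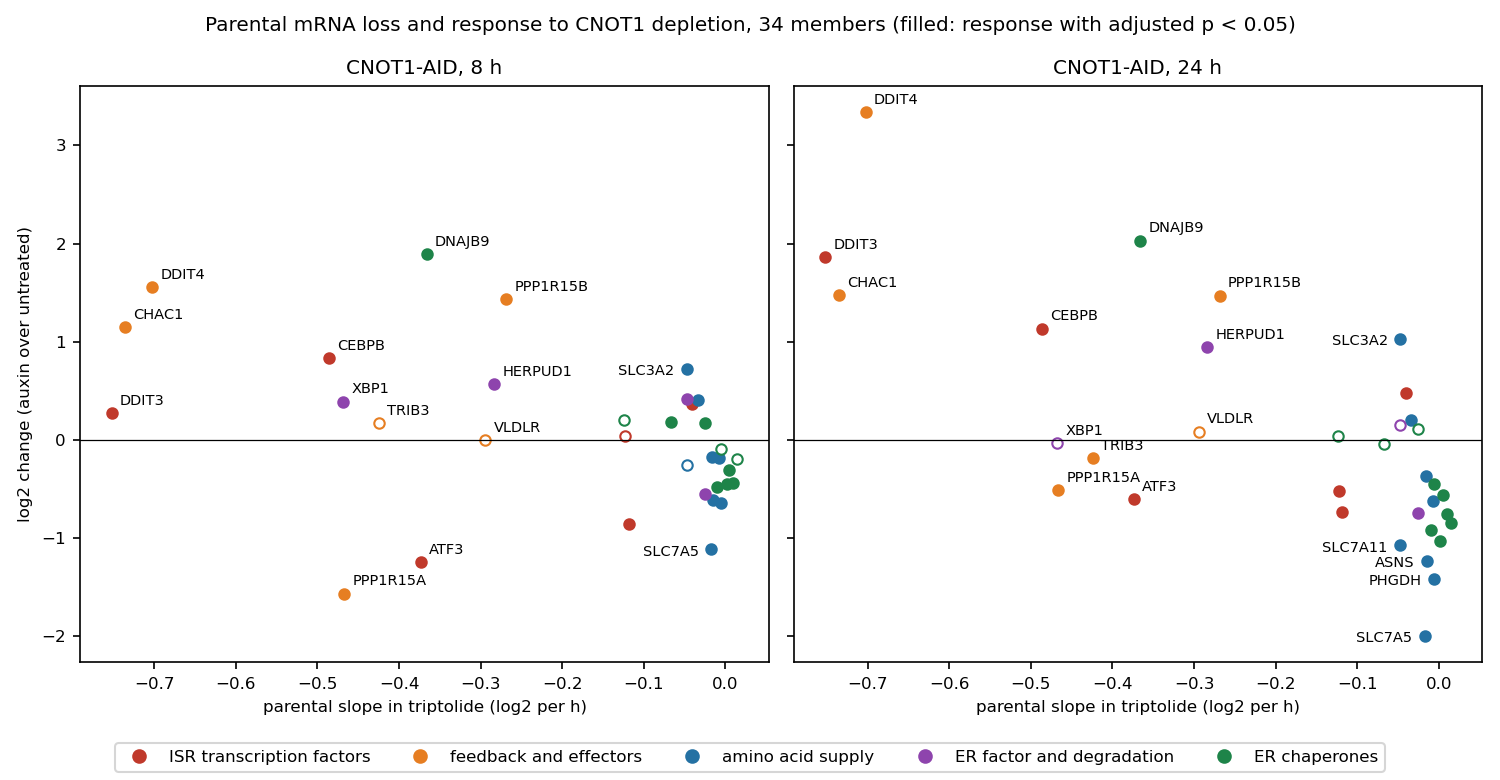
Log2 change with auxin over untreated in CNOT1-AID cells at 8 h (left) and 24 h (right) against the slope of mRNA loss in parental cells in triptolide (log2 per h, further left is faster loss) for 34 stress-response genes. Each point is a gene, coloured by role and filled where adjusted p is below 0.05. DDIT4, DDIT3, CHAC1 and DNAJB9 lie at the upper left, and the amino acid supply genes, with slopes near 0, lie mostly below 0, down to -2.00 for SLC7A5.

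Other genes of these pathways were listed as well, 96 in all, of which 89 were tested at steady state. After CNOT1 depletion 21 rose and 41 fell at 8 h, against 33.2% and 29.7% of all genes, and 28 rose and 49 fell at 24 h, against 36.7% and 34.7%, with a median log2 change of -0.19 at 24 h. The balance of directions changed with scaling, by counts added after the data were seen. With ERCC scaling 51 were higher and 4 lower at 8 h, against 52.1% and 9.85% of all genes, and 35 were higher and 23 lower at 24 h, against 47% and 19.4%. Without scaling the splits were 36 and 11 at 8 h and 33 and 27 at 24 h, against 44.4% and 15.1%, and 43.9% and 23.9%, of all genes. The counts that follow are with TMM scaling. Of 29 other ATF4 targets 8 rose and 20 fell at 24 h, and of 38 other ER folding and degradation genes 12 rose and 19 fell. The largest rises were those of GDF15, a stress-induced cytokine (3.54 ± 0.072, 11.6-fold), KLHL24, a ubiquitin ligase adaptor (2.63 ± 0.17), and CTH, which makes cysteine (2.41 ± 0.13). The largest falls were those of TXNDC5, an ER disulfide isomerase (-1.89 ± 0.054), JDP2, an AP-1 family repressor (-1.77 ± 0.14), and SLC1A4, a neutral amino acid transporter (-1.38 ± 0.066). Of the 16 genes of eIF2 kinases, their regulators, and eIF2 and eIF2B subunits 5 rose and 7 fell. The ER stress kinase EIF2AK3 is counted among these. A list of 6 genes held the sensors ATF6, ATF6B, ERN1 and ERN2 and the proteases of ATF6, MBTPS1 and MBTPS2. Of these 6, 3 rose and 3 fell.

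After CNOT4 depletion 3 of these 89 rose and 4 fell at 24 h, against 2.1% and 2.39% of all genes. With ERCC scaling limma called 12 higher and 0 lower (0 also at an unadjusted p under 0.05), and without scaling 0 (31 higher and 1 lower at an unadjusted p under 0.05). The 12 are 13.5% of the 89, against 3.07% of all genes higher and 0.0067% lower with ERCC scaling. Without scaling 0.127% of all genes were higher and 0.0134% lower. EIF2S2 and EIF2S1, subunits of eIF2, rose by 0.37 ± 0.065 and 0.18 ± 0.041, and TARS, a threonyl-tRNA synthetase, by 0.33 ± 0.050. SEC24D, a coat protein of vesicles that leave the ER, fell by 0.33 ± 0.058, and SEC61A1 and SEC61B, of the ER translocon, fell by 0.21 ± 0.043 and 0.20 ± 0.048. The fourth fall was that of EIF2S3, the remaining eIF2 subunit, by 0.17 ± 0.037 (adjusted p = 0.0202), which lies outside the rule for named genes and was added after its value was seen. In CNOT1-AID cells EIF2S3 had a change of -0.78 at 24 h. TARS, SEC61A1 and SEC61B fell in CNOT1-AID cells at 24 h (-0.33, -0.65 and -0.42), where SEC24D, EIF2S2 and EIF2S1 rose (0.25, 0.29 and 0.34). After triptolide edgeR called 9 of 90 with a slower loss in CNOT1-AID than in parental cells, or 10%, below the 18.8% of all genes, and 0 with a faster one (0.94% of all genes; 0 also at an unadjusted p under 0.05). With TMM scaling 10 had a slower and 38 a faster loss (20.5% and 15.7% of all genes).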

How the data were processed

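RNA-seq of DLD-1 lines was analysed in a steady-state set and a triptolide set, each of 24 libraries in 12 groups of 2, and other assays of the series were not analysed here. The steady-state values are TPM as deposited (each library summed to 999998.92 to 1000000.81), so their depth is unknown, and the triptolide values are deposited counts per gene with ERCC sequences. Per the submitters' processing notes, featureCounts, RSEM, SAMtools, DESeq2 and STAR 2.5.1b were used with hg38 or GRCh38, in roles that are not stated, and strandedness of the counting is not given in the sources used here. The 35 genes and the lists were chosen with earlier results of these data known.

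Genes with at least 1 TPM in 2 libraries (14921) were TMM-scaled, and log2(TPM + 0.5) was fitted with limma 3.58.1 (trend, robust) over 12 group means, with 12 residual degrees of freedom. On this scale the changes of low genes are understated. Counts of 16806 genes that passed filterByExpr were fitted with edgeR 4.0.16 (quasi-likelihood, robust), with library sizes from the 56 of 92 ERCC sequences averaging at least 10 counts, or TMM for 0 h, as a line per cell line on hours of triptolide (18 residual degrees of freedom) or as group means (12). Half-lives are 1 divided by the slope in log2 units per hour. Adjusted p-values are Benjamini-Hochberg values over all genes tested, called below 0.05, and no p-value was adjusted over the 35 genes. R 4.3.3 and python 3.11.15 were used, and the fits were tested on simulated data. Alternatives were other scalings, pseudocounts and filters, DESeq2 1.42.0, a replicate block, 0 to 6 h alone, and each library left out. Counts of the other pathway genes under other scalings were added after the data were seen. All 35 genes are named. Levels per library are given for up to 4 genes with the largest called change in each main contrast and for ATF4, DDIT3, ATF3, HSPA5, XBP1 and PPP1R15A, and of the other pathway genes up to 3 with the largest rise and 3 with the largest fall at 24 h.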

Additional observations from a re-analysis of the deposited data

Results flagged for a closer look

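These results differ between groups by a test of the difference itself. The auxin response in CNOT1-AID cells differed from that in parental cells for 21 of the 34 genes at 8 h and 27 at 24 h, and from that in CNOT4-AID cells for 27 at 8 h and 26 at 24 h. It differed between 24 h and 8 h for 22 genes, with differences of 1.78 for DDIT4, 1.59 for DDIT3 and 1.05 for PPP1R15A on the log2 scale. The slope of mRNA loss in CNOT1-AID cells differed from that in parental cells for 12 of 35 genes and from that in CNOT4-AID cells for 20, and the slope in CNOT4-AID cells differed from the parental one for 2. At 3 h of triptolide 6 genes differed between CNOT1-AID and parental cells. The shares of all genes called in each of these comparisons stand beside the counts above.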

How the results depend on the processing

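Of 2938 single-gene values under the alternatives, 2663 kept their side of the threshold, 206 lost the call and 44 gained one. A further 25 changed sign where the reported or the alternative value was called. Values called in neither fit are counted among the 2663 whatever their sign, so sign changes among them are not counted. The cause was not tested. ERCC scaling of the steady-state set gave 4 genes lower after CNOT1 depletion at 8 h and 16 higher and 11 lower at 24 h, 20 higher and 4 lower (8 h) and 9 lower (24 h) against parental, 21 higher and 4 lower against CNOT4 at 8 h, 0 lower after CNOT4 depletion at 24 h, 1 higher and 0 lower in the untreated CNOT1-AID line and 1 lower in the untreated CNOT4-AID line. TPM without scaling gave 6, 7 and 6 lower for the 8 h comparisons of CNOT1 depletion with untreated, parental and CNOT4, 2 higher and 0 lower for CNOT4 at 24 h, 1 higher and 0 lower for the untreated CNOT1-AID line and 1 higher and 24 lower for the untreated CNOT4-AID line. With no filter CNOT4 depletion at 24 h had 1 gene lower.

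Sign changes are listed here and below only where the reported or the alternative value was called, so uncalled values that turned are left out. Such signs at 8 h of CNOT1 depletion with ERCC scaling were those of PSAT1 (0.27), SHMT2 (0.28), PDIA4 (0.0151), PDIA6 (0.0197), CALR (0.16), HYOU1 (0.37) and VLDLR (0.37), and without scaling PSAT1 (0.10), SHMT2 (0.11) and HYOU1 (0.20). At 24 h they were HSPA5 (0.33), XBP1 (0.34), TRIB3 (0.18) and SHMT2 (0.005) with ERCC scaling and XBP1 (0.22) and TRIB3 (0.0666) without. SHMT2 against parental at 24 h (0.0251) and HYOU1 after CNOT4 depletion at 24 h (0.051) turned with ERCC scaling, and PPP1R15A (-0.0016) and HYOU1 (-0.0379) in the untreated CNOT4-AID line turned without scaling.

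For slopes, CNOT1 against parental had 13 genes lower with TMM and 12 with DESeq2, and PSAT1 turned (-0.0355 and -0.0321). CNOT1 against CNOT4 had 13 higher and 12 lower with either, and 11 higher over 0 to 6 h. CNOT4 against parental had 0 lower with TMM, DESeq2 or 0 to 6 h and 9 with DESeq2 on ERCC size factors. The parental slope of HSPA5 turned with TMM (0.0037), DESeq2 (0.0012) and 0 to 6 h (0.0056). At 3 h TMM and DESeq2 each gave 10 higher and 1 lower for CNOT1 against parental. At 0 h CNOT1 against parental had 3 higher with ERCC scaling, 11 higher and 1 lower with no filter and 1 lower with DESeq2, and CNOT4 against parental had 1 higher with ERCC scaling in edgeR or DESeq2, 2 lower with DESeq2 and 1 lower with no filter.

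Leaving out 1 library gave 12 to 13 genes higher and 12 to 13 lower after CNOT1 depletion at 8 h, 10 to 10 and 17 to 18 at 24 h, 1 to 4 and 0 to 2 after CNOT4 depletion at 24 h, 9 to 11 and 11 to 13 (8 h) and 8 to 10 and 17 to 18 (24 h) against parental, 11 to 13 and 12 to 13 (8 h) and 9 to 9 and 17 to 17 (24 h) against CNOT4, and 5 to 7 and 14 to 17 for 24 h against 8 h. The untreated lines gave 1 to 3 and 1 to 5 (CNOT1-AID) and 8 to 11 and 1 to 3 (CNOT4-AID). Slopes gave 9 to 12 higher for CNOT1 against parental, 0 to 24 lower for CNOT4 against parental and 16 to 29 higher for CNOT1 against CNOT4, the 3 h comparison 3 to 6 higher, and 0 h 6 to 14 and 0 to 6 (CNOT1) and 4 to 12 and 0 to 6 (CNOT4).

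Replicate numbers recur across groups, but same-numbered libraries did not deviate together in every pair of groups (r from -0.504 to 0.322 across genes), so the numbers were not taken as pairs. A replicate block gave 1 gene lower after CNOT4 depletion at 24 h and 0 lower for the CNOT4 slope against parental, and 200 of 205 single-gene values kept their call.

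With 2 libraries a group, differences below the spread of a pair cannot be seen. TPM carry no depth, and counts of a few reads (CHAC1, DDIT3 and DDIT4 late in triptolide, NUPR1 throughout) limit late values.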
